A study of Mus musculus with 6 samples.

Results

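The Zfp genes are mouse genes named for their zinc fingers, short protein loops held by a zinc ion that mostly read DNA. The members described here are the 248 symbols that consist of Zfp, a number and at most 1 further letter and that averaged at least 2 FPKM (fragments scaled to transcript length and to the number of mapped fragments) over 6 RNA sequencing libraries. They were taken from 297 such symbols among 17169 gene entries. The libraries came from 3 lines titled BBC, ZNF and BCRF8C, established from the bone marrow of diseased Balb/c mice. The disease, SCLL (stem cell leukemia and lymphoma), arises from fusion forms of the receptor tyrosine kinase FGFR1. Each line gave 1 library after 24 h with BGJ398 (infigratinib), an inhibitor of FGFR kinases, and 1 library after 24 h with its solvent DMSO. The concentrations of BGJ398 were 30 nM for BBC, 3 nM for ZNF and 1.5 nM for BCRF8C if the labels list them in the order of the lines, which is an assumption. Every group is an FGFR1-driven leukemia line, no normal cells were included, and no repeat cultures are named. The line is therefore the replicate, and p-values of BGJ398 against DMSO measure the spread of that ratio between 3 lines.

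Most Zfp proteins carry several classical fingers in a row, each holding its zinc with a pair of cysteines and a pair of histidines. Many also carry a KRAB box, a short domain that recruits the co-repressor Trim28 (KAP1), which brings the histone methyltransferase Setdb1 and HP1 proteins to the bound site. KRAB zinc finger proteins are known for silencing retroelements and for guarding imprints, and their genes lie in tandem arrays. Others without a KRAB box serve in ribosome quality control, RNA processing, mitosis or as general promoter factors, so the shared symbol marks a protein fold and not a pathway.

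The fold could be checked on translated coding sequences of GENCODE vM21. Of the 248 members, 237 matched a protein and 233 of these had at least 1 classical finger, with a median of 10 fingers and a maximum of 37. The 4 without one were Zfp36, whose fingers are of another type, Zfp330, Zfp259 (Zpr1) and Zfp935. A KRAB box was found in 117 proteins and not in the other 120. RefSeq lists Zfp353 as a pseudogene.

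The upstream sequences of 4 genes are shown because these genes moved in opposite directions with BGJ398 in all 3 lines: Zfp488 and Zfp277 were higher, Zfp259 and Zfp598 lower. Each is the 250 bases before the annotated start in RefSeq (GRCm38.p6), 5′ to 3′ on the strand of the gene, and capitals mark motif matches on either strand. The letters searched were GGGCGG for the GC box and CCAAT for the motif of that name. The E-box was searched as CACGTG and the motif of ETS factors as CCGGAAGT. The TATA box was searched as TATAAA, and the cAMP response element as TGACGTCA. None of these motifs contains another.
Zfp488, chr14:33978765-33979014, minus strand: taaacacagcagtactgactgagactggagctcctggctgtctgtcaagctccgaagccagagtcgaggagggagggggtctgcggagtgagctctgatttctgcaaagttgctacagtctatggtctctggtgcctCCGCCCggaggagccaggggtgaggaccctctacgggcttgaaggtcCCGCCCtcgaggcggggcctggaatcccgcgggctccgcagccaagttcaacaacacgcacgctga
Zfp277, chr12:40445791-40446040, minus strand: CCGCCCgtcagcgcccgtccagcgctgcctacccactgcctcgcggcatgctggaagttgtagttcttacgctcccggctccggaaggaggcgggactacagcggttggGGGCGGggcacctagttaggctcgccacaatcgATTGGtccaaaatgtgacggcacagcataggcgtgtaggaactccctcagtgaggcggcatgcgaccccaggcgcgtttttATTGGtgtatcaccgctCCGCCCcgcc
Zfp259, chr9:46272814-46273063, plus strand: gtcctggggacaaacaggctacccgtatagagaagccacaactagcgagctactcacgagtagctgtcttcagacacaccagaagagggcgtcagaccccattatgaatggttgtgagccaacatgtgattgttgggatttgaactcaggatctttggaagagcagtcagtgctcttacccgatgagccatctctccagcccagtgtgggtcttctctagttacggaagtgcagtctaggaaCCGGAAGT
Zfp598, chr17:24669437-24669686, plus strand: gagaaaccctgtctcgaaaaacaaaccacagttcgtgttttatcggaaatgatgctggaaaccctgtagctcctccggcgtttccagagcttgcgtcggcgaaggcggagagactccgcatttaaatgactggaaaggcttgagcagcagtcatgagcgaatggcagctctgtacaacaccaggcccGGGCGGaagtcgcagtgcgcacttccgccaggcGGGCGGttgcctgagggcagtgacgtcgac
The GC box matched upstream of Zfp488, Zfp277 and Zfp598, the CCAAT box upstream of Zfp277, and the ETS motif ended at the last base before the start of Zfp259. A match is a run of letters and no evidence of binding.

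Over the 208 members with an upstream sequence, 47.6% held a GC box, against 62.8% of 8562 tested genes and 35.4% of all 27025 genes in the table. The CCAAT box stood in 49.5% of members and 41.3% of tested genes, and the ETS motif in 12.02% of members and 6.89% of tested genes. The E-box stood in 7.21% of members and 9.96% of tested genes, the TATA box in 6.73% and 8.49%, and the cAMP response element in 5.29% and 3.17%. Within the members the GC box was found upstream of 34.6% of 104 KRAB genes and of 64.6% of 96 genes without a KRAB box, the widest gap of the 6 motifs.

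Zfp genes were expressed at modest levels. Their median of the 6-library mean was 6.12 FPKM, against 8.45 FPKM over the 14232 entries tested, those with a mean of at least 1 FPKM. The 20 classes of expression, of about 712 genes each, held no member in the 3 lowest, because of the 2 FPKM minimum, and 1 in each of the 2 highest. Just inside the minimum stood Zfp248 at 2.06, Zfp318 at 2.07 and Zfp941 at 2.12 FPKM, and just outside it Zfp882 at 1.89, Zfp937 at 1.97 and Zfp773 at 1.998 FPKM. The minimum was passed on the mean of the BGJ398 libraries alone by 10 members and on that of the DMSO libraries alone by 8. Of the 49 symbols below the minimum, 39 were tested. Of these 1 was called higher and 0 lower, against 6.61% and 30.2% of all genes tested. The median log2 ratio of the 39 was 0.11.

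With BGJ398, Zfp transcripts shifted down in all 3 lines, as did the table as a whole. The median member had 3.55 FPKM with BGJ398 and 6.88 FPKM in DMSO in BBC, 6.33 and 8.27 FPKM in ZNF, and 4.24 and 6.84 FPKM in BCRF8C. The median over all tested genes was 4.53 FPKM with BGJ398 and 9.95 FPKM in DMSO in BBC, 6.47 and 8.36 FPKM in ZNF, and 4.92 and 9.03 FPKM in BCRF8C. In BBC, 29 members reached 10 FPKM with BGJ398, against 82 in DMSO, beside 3766 and 7096 of all genes tested. In ZNF the numbers were 67 with BGJ398 and 106 in DMSO, beside 5321 and 6566 of all genes. In BCRF8C they were 32 with BGJ398 and 79 in DMSO, beside 3826 and 6823 of all genes. FPKM is scaled to the mapped fragments of each library, so a fall across the table is no measure of total RNA. For a single gene in libraries from whole cultures, fewer cells of a type and less RNA per cell cannot be told apart.

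On the scale of log2(FPKM + 1), BGJ398 minus DMSO, the median over members of the mean ratio of 3 lines was −0.59, against −0.69 over all genes tested, a difference of 0.10. That difference turned to −0.17 with no minimum on the genes tested and to −0.042 with members from 5 FPKM. Members ranged from −1.71 to 3.18, and 34 were lower and 7 higher by at least 1. With limma, the line as a block and an adjusted p under 0.05, 37 of 248 members were called lower (14.9%), against 30.2% of all genes. Called higher were 4 members (1.61%), against 6.61% of all genes. Among the other genes of the classes that hold the members, weighted by the number of members in each, 28.5% were called lower and 6.48% higher. The share of Zfp genes called was thus smaller in both directions than that of genes at their level, a description with no test. At an unadjusted p under 0.05 stood 39.1% of members and 54.9% of all genes. The calls were lost with the general shift removed or BBC left out: limma called 0 members in either direction once ratios were centred on genes of like expression, under quantile normalization, under median-of-ratios scaling, and without BBC. At an unadjusted p under 0.05 stood 7 lower and 19 higher after centring, 18 and 11 under quantile normalization, 12 and 26 under median-of-ratios scaling, and 2 and 6 without BBC. The loss was common to the table: of all 14232 genes, limma called 0 after centring, 1 lower and 2 higher under quantile normalization, 1 and 3 under median-of-ratios scaling, and 0 without BBC. The members' median without BBC was −0.50. Without BCRF8C limma called 0 members lower and 3 higher, beside 852 and 796 of all genes. Without ZNF it called 39 members lower and 1 higher, beside 4795 and 179 of all genes. Median-of-ratios scaling moved the median of all genes to −0.07 and that of the members to 0.03.

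The direction was shared more widely than the calls show. In all 3 lines 175 members were lower with BGJ398 (70.6%, against 55.7% of all genes tested), and 14 were higher (5.65%, against 15.4%). A gene listed at 0 in both libraries of a line can count in neither direction. Above 0 in every library were 247 of 248 members, but only 12721 of 14232 genes tested. The genes tested also include those of 1 to 2 FPKM, so these shares are not compared at like level. Every BGJ398 library lay below every DMSO library for 68 members (27.4%, against 35.1% of genes) and above for 8 (3.23%, against 11.3%). A like-expression ratio was formed by subtracting, within a line, the median ratio of the other genes in the same class of expression. By that measure 47 members lay below genes of their level in all 3 lines (19.0%, against 24.0% of genes tested), and 74 lay above (29.8%, against 23.9%).

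Line by line, the median like-expression ratio of the members was 0.05 (BBC), 0.08 (ZNF) and 0.17 (BCRF8C), so the median member lay within 0.2 of genes at its level. The 3 lines share the sign, but flipping the signs of 3 pairs in an exact test gives no p below 0.25, and there is no replicate within a line. The ratios of the members also spread less than those of all genes tested, which include genes of 1 to 2 FPKM. The SD of the ratios was 0.60 over members and 1.60 over all genes tested in BBC, 0.56 and 1.25 in ZNF, and 0.97 and 1.64 in BCRF8C. Centred on genes of like expression it was 0.66 and 1.47 in BBC, 0.52 and 1.11 in ZNF, and 0.99 and 1.31 in BCRF8C. Centring takes out the median of a class and not its spread, so no SD here is that of genes at the members' level.

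Members crossed a 2-fold change less often in ZNF than in the other lines. In BBC 82 were at least 2-fold lower (33.1%, against 46.5% of genes tested) and 4 at least 2-fold higher (1.61%, against 7.72%). In ZNF 8 were 2-fold lower (3.23%, against 14.2%) and 7 higher (2.82%, against 14.6%). In BCRF8C 64 were 2-fold lower (25.8%, against 42.4%) and 17 higher (6.85%, against 18.4%). The excess of falls depended on the scale. Median-of-ratios scaling turned it round, with 3 lower and 16 higher in BBC, 0 and 9 in ZNF, and 9 and 34 in BCRF8C. Quantile normalization kept it in BBC, with 24 lower and 14 higher, and in BCRF8C, with 39 and 25, but not in ZNF, with 5 and 7. Relative to genes of like expression, BBC had 9 members 2-fold lower and 15 higher (11.8% and 12.8% of genes tested), ZNF 2 and 8 (5.04% and 8.69%), and BCRF8C 19 and 30 (14.2% and 12.6%). Across the 248 members the ratios as deposited had a Pearson r of 0.60 between BBC and ZNF, 0.75 between BBC and BCRF8C and 0.70 between ZNF and BCRF8C. Over all genes tested r was 0.46, 0.55 and 0.56 for the same pairs. These are descriptions over genes that share libraries and the dependence of the ratio on level.

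**Figure D1:**
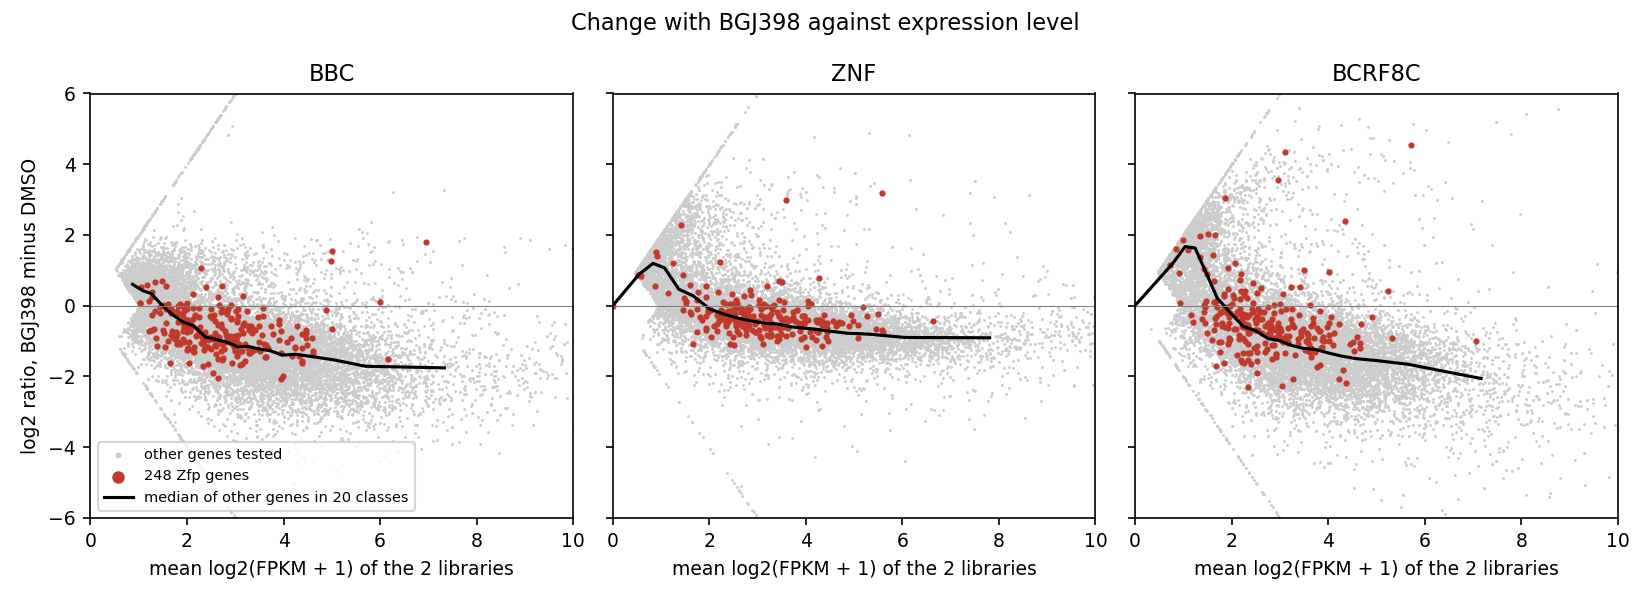
Log2 ratio of BGJ398 minus DMSO against the mean log2(FPKM + 1) of both libraries, in BBC, ZNF and BCRF8C. Red points are the 248 Zfp genes, grey points the other genes tested, and the black line joins the medians of the other genes in 20 classes of expression. The vertical axis stops at 6 in either direction. The red points lie in a narrow band around the line, with median like-expression ratios of 0.05, 0.08 and 0.17, and a few rises stand far above it.

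The rises were few and large. Zfp488, known as a transcriptional repressor in oligodendrocytes, had 231 FPKM with BGJ398 and 65.5 FPKM in DMSO in BBC, 143 and 14.8 FPKM in ZNF, and 253 and 9.78 FPKM in BCRF8C. All 3 BGJ398 libraries lay above all 3 DMSO libraries, and with BGJ398 no other member was as abundant. Its mean log2 ratio was 3.18 ± 1.38 (SD, n = 3 lines; limma adjusted p = 0.035), and 4.59 ± 1.42 relative to genes of like expression. The table places it at chr14:34780256-34791950 (NCBIM37).

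Zfp353, the locus listed as a pseudogene, had 53.3 FPKM with BGJ398 and 17.7 FPKM in DMSO in BBC, 33.0 and 3.27 FPKM in ZNF, and 37.8 and 0.90 FPKM in BCRF8C. The groups did not overlap, and the mean log2 ratio was 2.96 ± 1.41 (SD, n = 3 lines; limma adjusted p = 0.035). As with other near copies of genes, how the authors' counting assigned its reads is not given in the sources used here.

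Zfp277, which is known to bind the polycomb protein Bmi1, had 48.1 FPKM with BGJ398 and 19.4 FPKM in DMSO in BBC, 24.4 and 13.9 FPKM in ZNF, and 45.6 and 7.85 FPKM in BCRF8C. The lowest BGJ398 library stood above the highest DMSO library. Its mean log2 ratio was 1.48 ± 0.83 (SD, n = 3 lines; limma adjusted p = 0.040), and 2.69 ± 1.19 relative to genes of like expression.

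Zfp575 had 6.07 FPKM with BGJ398 and 2.39 FPKM in DMSO in BBC, 4.93 and 0.21 FPKM in ZNF, and 4.74 and 0.41 FPKM in BCRF8C, again without overlap. Its mean log2 ratio was 1.79 ± 0.65 (SD, n = 3 lines; limma adjusted p = 0.035). Zfp575 met the 2 FPKM minimum through its BGJ398 libraries, where it is high, so its place among the members is no support for the rise. Its locus overlaps that of Ethe1, and since strand is not stated, reads of the pair may not be separable. All 4 of these genes had positive mean ratios under median-of-ratios scaling, quantile normalization and centring on genes of like expression as well.

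The next highest ratios did not pass the test. Zfp457, a KRAB gene of the array on chromosome 13, had 25.8 FPKM with BGJ398 and 1.26 FPKM in DMSO in BCRF8C, but only 2.53 and 1.19 FPKM in BBC and 1.22 and 0.50 FPKM in ZNF (1.61 ± 1.70, SD, n = 3 lines; limma adjusted p = 0.082). Zfp385b had 9.37 FPKM with BGJ398 and 0.27 FPKM in DMSO in BCRF8C, 2.60 and 1.47 FPKM in BBC, and 2.06 and 0.16 FPKM in ZNF (adjusted p = 0.053, limma). For Zfp300 the values were 7.05 FPKM with BGJ398 and 4.51 FPKM in DMSO in BBC, 2.61 and 0.56 FPKM in ZNF, and 2.80 and 0.05 FPKM in BCRF8C (adjusted p = 0.051, limma). Zfp248, which only just met the expression minimum, had a mean log2 ratio of 0.999 (adjusted p = 0.12, limma). All 4 met the 2 FPKM minimum through their BGJ398 libraries alone, so the shared positive sign is partly set by that minimum.

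The falls were smaller, and for each of the 8 lowest genes the fall was smallest in ZNF. So was the median fall over all genes tested, at −0.37 in ZNF, −0.91 in BBC and −0.76 in BCRF8C. Relative to genes of like expression, the falls of Zfp639, Zfp330 and Zfp110 were smallest in another line. Zfp259 (Zpr1), a conserved protein that binds the tails of growth factor receptors and the elongation factor eEF1A, had 6.56 FPKM with BGJ398 and 30.7 FPKM in DMSO in BBC, 14.5 and 30.1 FPKM in ZNF, and 8.08 and 37.1 FPKM in BCRF8C. It had the lowest mean log2 ratio of all members, −1.71 ± 0.62 (SD, n = 3 lines; limma adjusted p = 0.035). Relative to genes of like expression the ratio was −0.53 ± 0.22.

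Zfp598, a ubiquitin ligase that marks collided ribosomes, had 1.99 FPKM with BGJ398 and 10.2 FPKM in DMSO in BBC, 5.13 and 10.1 FPKM in ZNF, and 1.98 and 10.2 FPKM in BCRF8C. The DMSO libraries were within 0.1 FPKM of each other, and all 3 BGJ398 libraries lay below them. The mean log2 ratio was −1.56 ± 0.60 (SD, n = 3 lines; limma adjusted p = 0.035), and −0.84 ± 0.43 relative to genes of like expression.

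The other 6 of the 8 lowest were Zfp511, Zfp639, Zfp771, the nucleolar protein gene Zfp330, Zfp110, whose product binds the neurotrophin receptor p75, and Zfp828 (Champ1), which serves chromosome alignment in mitosis. Their mean log2 ratios lay between −1.46 and −1.32. Zfp639 had 7.05 FPKM with BGJ398 and 30.7 FPKM in DMSO in BBC, 12.3 and 25.1 FPKM in ZNF, and 7.50 and 19.9 FPKM in BCRF8C. Zfp771 stood apart within this set, with 17.9 FPKM with BGJ398 and 21.8 FPKM in DMSO in ZNF, against 3.40 and 12.4 FPKM in BBC and 2.74 and 17.1 FPKM in BCRF8C. All 8 had negative mean ratios under each scaling tried.

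**Figure D2:**
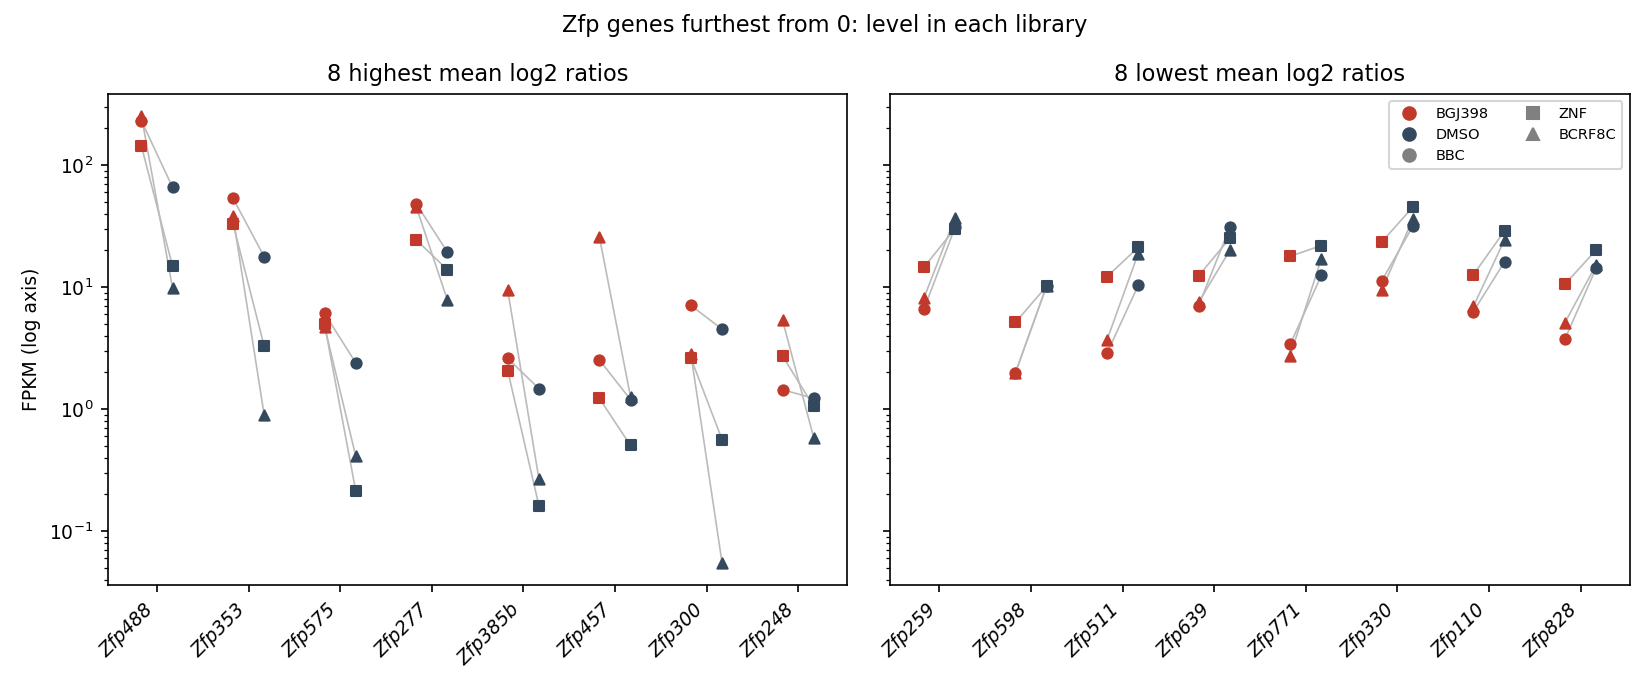
FPKM (log axis) of the 8 Zfp genes with the highest and the 8 with the lowest mean log2 ratio in each library, BGJ398 in red on the left and DMSO in dark blue on the right of each gene. Circles are BBC, squares ZNF and triangles BCRF8C, and grey lines join the libraries of a line. Zfp488 reached 231, 143 and 253 FPKM with BGJ398. Each of the 8 falls on the right is smallest in ZNF, as is the median fall over all genes tested.

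The most abundant members besides Zfp488 did not pass the test with 1 exception. Zfp207 (BuGZ), a spindle and kinetochore protein, had 41.6 FPKM with BGJ398 and 121 FPKM in DMSO in BBC, 84.2 and 114 FPKM in ZNF, and 93.5 and 190 FPKM in BCRF8C (−0.99 ± 0.54, SD, n = 3 lines; limma adjusted p = 0.11). Its groups did not overlap. Zfp740 was called lower, with 11.2 FPKM with BGJ398 and 34.8 FPKM in DMSO in BBC, 36.2 and 61.6 FPKM in ZNF, and 16.6 and 35.5 FPKM in BCRF8C (−1.12 ± 0.41, SD, n = 3 lines; limma adjusted p = 0.048). Relative to genes of like expression, however, its mean ratio was 0.11. Zfp266, Zfp644, Zfp91, Zfp62 and Zfp146, the others of the 8 most abundant, had adjusted p between 0.058 and 0.67 with limma. Zfp644, a partner of the methyltransferases G9a and GLP, had 24.7 FPKM with BGJ398 and 39.5 FPKM in DMSO in BBC, 40.7 and 48.4 FPKM in ZNF, and 25.7 and 32.5 FPKM in BCRF8C.

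Members with and without a KRAB box differed in how far they shifted. Of 117 KRAB genes, 11 were called lower and 0 higher, with a median log2 ratio of −0.45. Of 120 members without a KRAB box, 26 were called lower and 3 higher, with a median of −0.77. Both classes had smaller shares called in either direction than all genes tested, with 30.2% lower and 6.61% higher. The KRAB genes were also expressed at a lower level, with a median of 5.34 FPKM against 7.72 FPKM. Members at 2 to 5 FPKM had a median ratio of −0.30, and those at 10 to 20 FPKM −0.83. At 5 to 10 FPKM the medians were −0.53 over 48 KRAB genes and −0.74 over 38 others, and at 10 to 20 FPKM −0.68 over 19 KRAB genes and −0.92 over 29 others. Relative to genes of like expression, the median KRAB gene stood at 0.19 in BBC, at 0.00 in ZNF and at 0.26 in BCRF8C. The median member without a KRAB box stood at −0.04 in BBC, at 0.14 in ZNF and at 0.05 in BCRF8C. The order of the classes in ZNF was thus the reverse of that in BBC and BCRF8C, and with 1 library per line and agent the difference has no test.

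Members were also divided by their number of fingers, without regard to the KRAB box. Members with 15 or more fingers had a median log2 ratio of −0.45 and 2 of 49 were called lower (4.08%, against 30.2% of all genes tested). Those with 10 to 14 had −0.55 with 9 of 71 called lower (12.7%). Those with 5 to 9 had −0.70 with 14 of 78 (17.9%), and those with at most 4 had −0.88 with 12 of 39 (30.8%). The median level was 5.57, 5.30, 6.46 and 9.08 FPKM in the same order. Their like-expression medians were 0.19, 0.15, 0.10 and −0.05, and the part of level in the difference was not tested.

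**Figure D3:**
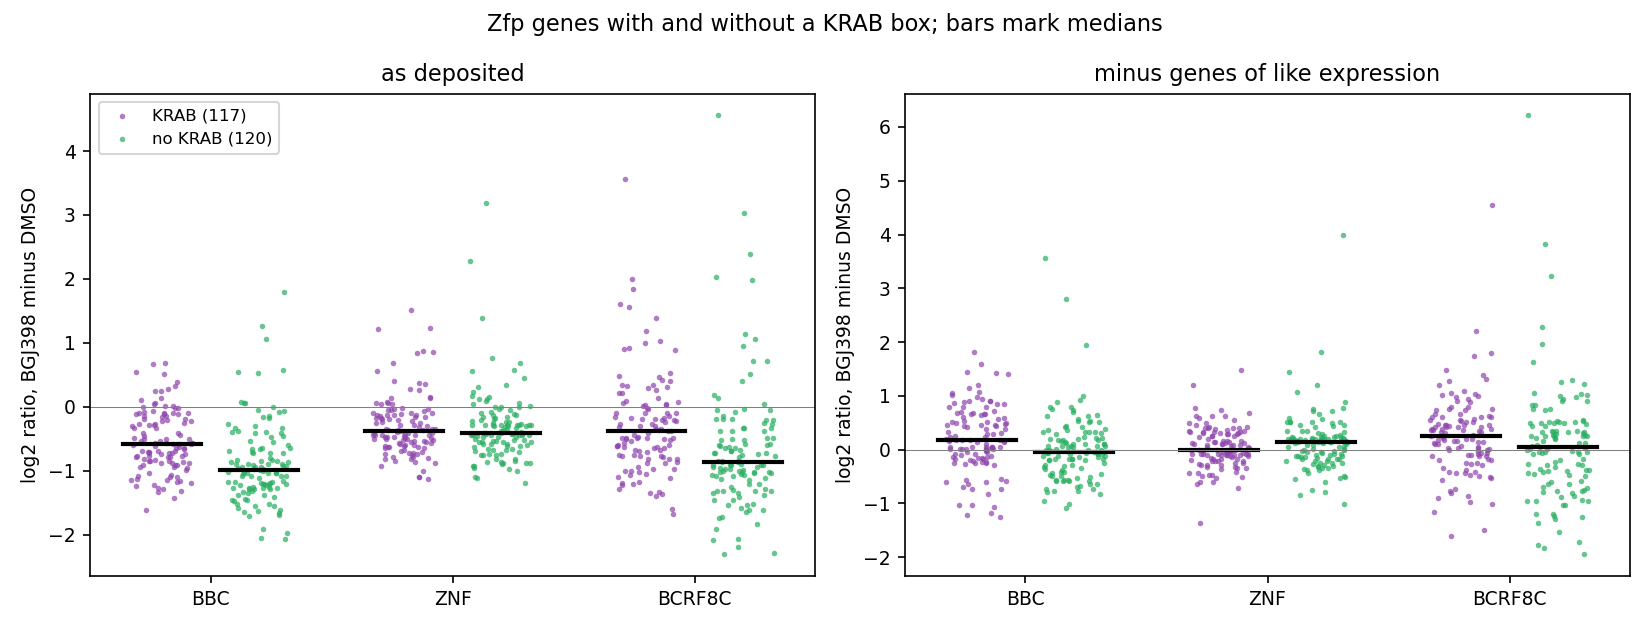
Log2 ratio of BGJ398 minus DMSO in each line for 117 Zfp genes with a KRAB box (purple) and 120 without (green), as deposited on the left and relative to genes of like expression on the right. Each point is 1 gene and black bars are medians. On the right the KRAB medians are 0.19, 0.00 and 0.26 and the others −0.04, 0.14 and 0.05 in BBC, ZNF and BCRF8C.

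The genes that KRAB proteins work through were listed for comparison. Of 15 genes of this co-repressor machinery, 9 were called lower and 0 higher by limma, against 30.2% and 6.61% of all genes tested. Trim28, the direct partner of the KRAB box, had 40.1 FPKM with BGJ398 and 224 FPKM in DMSO in BBC, 283 and 521 FPKM in ZNF, and 40.8 and 365 FPKM in BCRF8C (−2.15 ± 1.16, SD, n = 3 lines; limma adjusted p = 0.038). Setdb1 had 9.57 FPKM with BGJ398 and 27.3 FPKM in DMSO in BBC, 10.0 and 18.5 FPKM in ZNF, and 14.1 and 30.5 FPKM in BCRF8C. The list's median log2 ratio was −1.34, but its median relative to genes of like expression was 0.07.

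KRAB proteins with known targets did not pass the test. Zfp445, which guards imprints, had 5.27 FPKM with BGJ398 and 14.8 FPKM in DMSO in BBC, 10.9 and 17.01 FPKM in ZNF, and 12.2 and 21.8 FPKM in BCRF8C (−0.91 ± 0.38, SD, n = 3 lines; limma adjusted p = 0.059). Zfp809, which binds the primer binding site of murine leukemia viruses, had 4.25 FPKM with BGJ398 and 8.42 FPKM in DMSO in BBC, 3.17 and 6.64 FPKM in ZNF, and 3.80 and 5.75 FPKM in BCRF8C (adjusted p = 0.074, limma). Zfp568, which represses a placental promoter of Igf2, had a ratio of −0.20 in BBC, −0.62 in ZNF and −1.36 in BCRF8C (adjusted p = 0.11, limma). Zfp932, a silencer of endogenous retroviruses, had −0.71, −0.13 and −0.34 in the same lines (adjusted p = 0.30, limma).

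Many members sit next to each other. Runs of at least 5 members with gaps under 500 kb numbered 10 and held 92 members, of which 59 had a KRAB box. Chromosome 7 carried 62 members, chromosome 17 33 and chromosome 13 23. The longest run, chr17:21145905-23701193 in NCBIM37, held 16 members from Zfp160 to Zfp213, 15 of them with a KRAB box. None of the 16 was called, where 30.2% of all genes tested were called lower and 6.61% higher. Their median log2 ratio was −0.30, and relative to genes of like expression the medians were 0.59 (BBC), 0.13 (ZNF) and 0.40 (BCRF8C). A run of 9 members on chromosome 7 from Zfp553 to Zfp668, 3 with a KRAB box, had a median of −0.75 with 2 called lower (22.2%). There the like-expression medians were −0.43 (BBC), 0.20 (ZNF) and −0.07 (BCRF8C).

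A short run on chromosome 9, from Zfp560 to Zfp846, held 5 KRAB genes. Their median was 12.7 FPKM with BGJ398 and 29.6 FPKM in DMSO in BBC, 7.55 and 13.8 FPKM in ZNF, and 4.21 and 9.14 FPKM in BCRF8C. Zfp266 of this run had 65.1 FPKM with BGJ398 and 60.5 FPKM in DMSO in BBC, 26.0 and 35.5 FPKM in ZNF, and 10.0 and 19.3 FPKM in BCRF8C. Zfp26, against that order of the lines, had 12.7 FPKM with BGJ398 and 30.2 FPKM in DMSO in BBC, and 21.9 and 31.0 FPKM in ZNF. The table gives Zfp26, Zfp266 and Zfp426 the same coordinates, so how their reads were divided is uncertain. Inside runs 11 of 92 members were called lower and 1 higher, with a median of −0.53. Outside them 26 of 156 were called lower and 3 higher, with a median of −0.65. Both sets had smaller shares called in either direction than all genes tested, with 30.2% lower and 6.61% higher. The difference between members inside and outside runs was not tested. Neighbours in a tandem array can share sequence, and 49 of the 248 members overlap another entry of the table.

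**Figure D4:**
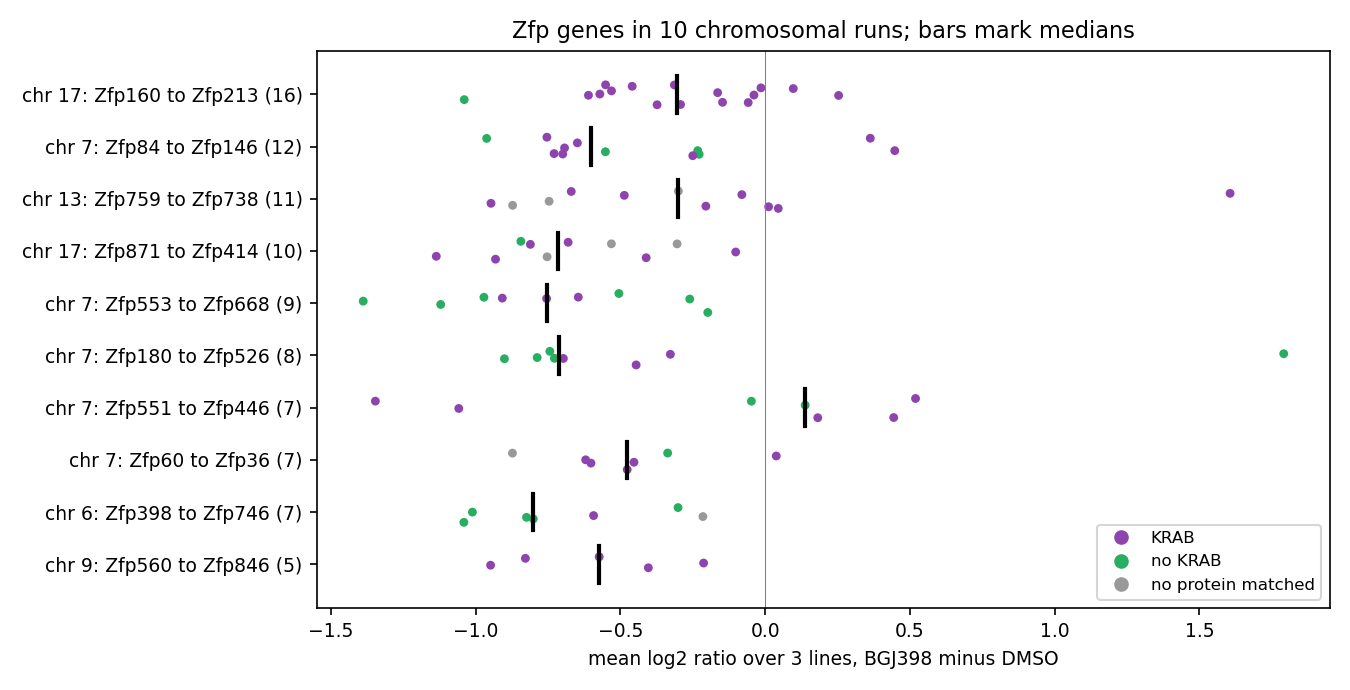
Mean log2 ratio over 3 lines, BGJ398 minus DMSO, of the Zfp genes in 10 chromosomal runs, each row named by chromosome, its first and last member and the number of members. Purple points have a KRAB box, green points have none, grey points had no matched protein, and black bars are medians. The run of 16 on chromosome 17 has its median at −0.30, and Zfp457 and Zfp575 stand apart on the right of their runs.

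Of 9 members that act on RNA and ribosomes, 2 were called lower and 0 higher, against 30.2% and 6.61% of all genes tested. Besides Zfp598 this was Zfp622, a late factor of large ribosomal subunit assembly, with 5.57 FPKM with BGJ398 and 14.8 FPKM in DMSO in BBC, 15.1 and 21.2 FPKM in ZNF, and 6.60 and 19.9 FPKM in BCRF8C (−1.06 ± 0.53, SD, n = 3 lines; limma adjusted p = 0.049). Zfp106, an RNA-binding protein, had 10.9 FPKM with BGJ398 and 35.5 FPKM in DMSO in BBC and 8.65 and 43.2 FPKM in BCRF8C, but 35.01 and 35.9 FPKM in ZNF (adjusted p = 0.072, limma). Zfp326, a factor of splicing and elongation, had 21.5 FPKM with BGJ398 and 10.6 FPKM in DMSO in BCRF8C, 9.77 and 12.3 FPKM in BBC, and 7.99 FPKM under either agent in ZNF. Zfp473, needed for the ends of histone transcripts, lay between 2.17 and 2.63 FPKM in all 6 libraries. The splicing factor Zfp830 had a mean log2 ratio of −0.93, the double-stranded RNA binder Zfp346 −0.57 and the mRNA decay factor Zfp36 (tristetraprolin) −0.34, with limma adjusted p of 0.059, 0.16 and 0.41.

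Of 5 members with a known lymphoid role, 1 was called lower, against 30.2% of all genes tested. Zfp335, needed for thymocyte maturation, had 2.72 FPKM with BGJ398 and 7.63 FPKM in DMSO in BBC, 3.15 and 5.24 FPKM in ZNF, and 1.72 and 7.34 FPKM in BCRF8C (−1.14 ± 0.52, SD, n = 3 lines; limma adjusted p = 0.041). The locus of Zfp335 overlaps those of Pcif1 and Gm11458. Zfp318, which governs the switch from IgM to IgD transcripts, had 4.47 FPKM with BGJ398 and 1.63 FPKM in DMSO in BCRF8C, 1.77 and 0.85 FPKM in BBC, and 1.99 and 1.75 FPKM in ZNF (adjusted p = 0.22, limma). Zfp608 was listed at 0 in both ZNF libraries, and had 6.15 FPKM with BGJ398 and 8.53 FPKM in DMSO in BBC and 6.14 and 14.1 FPKM in BCRF8C. Zfp384, a partner in leukemia fusions in humans, and Zfp91, a ubiquitin ligase of the NF-kB pathway, had mean ratios of −0.69 and −0.91 and did not pass.

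Among 6 promoter factors 2 were called lower, Zfp740 and Zfp410, an activator of the chromatin remodeller gene Chd4. Zfp410 had 7.48 FPKM with BGJ398 and 18.5 FPKM in DMSO in BBC, 15.8 and 27.3 FPKM in ZNF, and 2.32 and 8.91 FPKM in BCRF8C (−1.18 ± 0.41, SD, n = 3 lines; limma adjusted p = 0.037). Zfp143, which binds many housekeeping promoters, had 4.82 FPKM with BGJ398 and 10.2 FPKM in DMSO in BBC, 7.78 and 12.9 FPKM in ZNF, and 4.81 and 10.4 FPKM in BCRF8C, with an adjusted p of 0.052 from limma. Zfp148, Zfp161 and Zfp219 had mean log2 ratios of −0.88, −0.85 and −0.84 and did not pass. Of 3 pluripotency factors Zfp706 was called lower (−1.13 ± 0.35, SD, n = 3 lines; limma adjusted p = 0.042), while Zfp281 stood at −0.92 and Zfp322a at −0.67. Of 4 members of chromatin complexes Zfp217, a subunit found with CoREST, was called lower, with ratios of −1.08 in BBC, −0.93 in ZNF and −0.998 in BCRF8C (limma adjusted p = 0.041). Zfp592 and Zfp687, which bind each other, had −0.40 and −0.53 and did not pass. Beside these counts, 30.2% of all genes tested were called lower. Relative to genes of like expression the median of each of these lists lay between 0.03 and 0.29.

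Other zinc finger families can be set beside the Zfp genes. Families were split by the symbols in the deposited table. The Zfp genes therefore include some that RefSeq names otherwise: Zfp161 (Zbtb14), Zfp238 (Zbtb18), Zfp295 (Zbtb21), Zfp498 (Zscan25), Zfp187 (Zscan26) and Zfp192 (Zkscan8). Of 29 Zbtb genes, 4 were called lower (13.8%), of 12 Zscan and Zkscan genes 2 (16.7%), of 9 Klf genes 0, and of 18 Zc3h genes, whose fingers bind RNA, 8 (44.4%). Over all genes tested 30.2% were called lower. None of the 4 families had a gene called higher, against 6.61% of all genes tested. Relative to genes of like expression their medians were 0.13, 0.06, 0.26 and −0.12, against 0.11 for the Zfp genes, and the differences between families were not tested.

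Levels of the Zfp genes were also compared between the lines. In DMSO, BBC exceeded ZNF at least 2-fold for 19 members (7.66%, against 18.8% of genes tested) and was 2-fold below it for 34 (13.7%, against 7.68%). BBC exceeded BCRF8C for 22 (8.87%, against 18.4%) and was below it for 8 (3.23%, against 10.1%). ZNF exceeded BCRF8C for 38 (15.3%, against 12.6%) and was below it for 10 (4.03%, against 15.2%). ZNF had the highest level of the 3 lines for 129 members, BBC for 61 and BCRF8C for 58. These counts have no share over all genes beside them. The median difference in DMSO was −0.28 between BBC and ZNF over members, against 0.18 over all genes tested, and 0.34 between ZNF and BCRF8C, against −0.05.

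Tested over both agents with limma in genes above 0 in every library, BBC minus ZNF called 3 of 247 members higher and 14 lower (3.22% and 3.65% of 12721 genes). BBC minus BCRF8C called 9 higher and 1 lower (4.23% and 2.88% of genes), and ZNF minus BCRF8C 15 higher and 3 lower (6.93% and 4.09% of genes). Whether the members differ from all genes in these shares was not tested. In these contrasts the BGJ398 and DMSO libraries of a line stand in for replicates. The p-values behind the calls thus measure how unevenly the ratio to DMSO ran across lines, not the spread between cultures of a line. The higher BBC value of each Zfp symbol was at least 1.02 FPKM, while 11 Zfp symbols were listed at 0 in both ZNF libraries and 6 in both BCRF8C libraries. Levels across lines therefore rest on Zfp symbols that all reach 1.02 FPKM in a BBC library. Whether the table was filtered on BBC is not given in the sources used here.

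Zfp182, a KRAB gene on the X chromosome, led in BBC with 10.7 FPKM with BGJ398 and 11.3 FPKM in DMSO, against 0.95 and 0.07 FPKM in ZNF and 2.12 and 0.03 FPKM in BCRF8C. Zfp353 and Zfp488 came next in DMSO, but with BGJ398 Zfp488 was higher in BCRF8C than in BBC. In ZNF the leaders were Zfp219, Zfp629 and Zfp704. Zfp219 had 26.9 FPKM with BGJ398 and 32.3 FPKM in DMSO in ZNF, 3.10 and 6.88 FPKM in BBC, and 1.15 and 4.35 FPKM in BCRF8C. Its locus overlaps another entry of the table, as do those of Zfp704 and of Zfp652 and Zfp943, named below. Zfp629 had 15.9 FPKM with BGJ398 and 21.2 FPKM in DMSO in ZNF, and at most 4.63 FPKM in the 4 other libraries. In BCRF8C Zfp652 led, with 15.5 FPKM with BGJ398 and 37.3 FPKM in DMSO, against 5.21 and 10.1 FPKM in BBC and 7.23 and 11.6 FPKM in ZNF. By distance above the other lines in DMSO, Zfp943, a KRAB gene of the longest run, came next, with 12.6 FPKM with BGJ398 and 13.999 FPKM in DMSO in BCRF8C. Zfp414 followed, with 7.20 FPKM with BGJ398 and 17.9 FPKM in DMSO there.

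**Figure D5:**
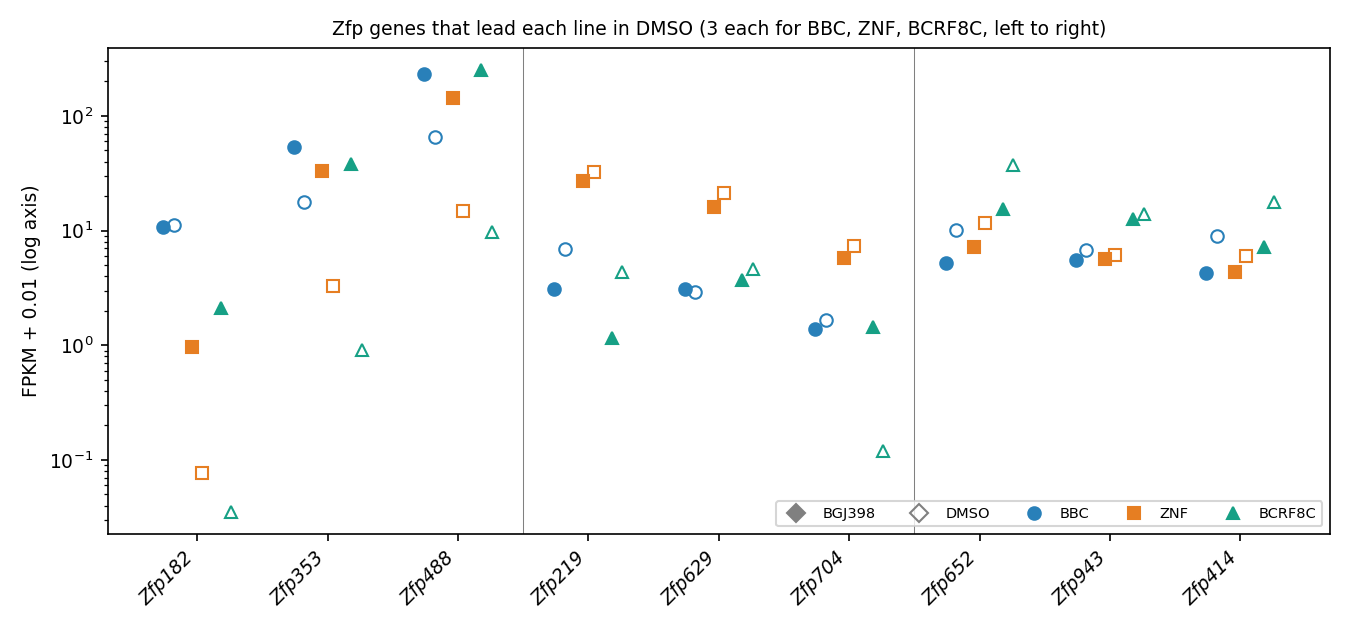
FPKM plus 0.01 (log axis) of the 3 Zfp genes furthest above both other lines in DMSO for BBC, ZNF and BCRF8C, left to right. Filled symbols are BGJ398 and open symbols DMSO, with circles for BBC, squares for ZNF and triangles for BCRF8C. Zfp182 stands at 11.3 FPKM in DMSO in BBC and near 0 in the other lines, while Zfp219 and Zfp629 stay highest in ZNF under either agent.

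Markers of blood lineages differed between the lines, and none placed BCRF8C. Of the B lineage markers, Igll1 had 252 FPKM with BGJ398 and 546 FPKM in DMSO in BBC, and Cd79b had 140 and 232 FPKM there. Igll1, Cd79b and Vpreb1 were listed at 0 in the other 4 libraries, where Pax5 reached at most 4.66 FPKM and Ebf1 at most 6.48 FPKM, in BCRF8C with BGJ398. The 5 T lineage markers in the table summed to 495 FPKM with BGJ398 and 780 FPKM in DMSO in ZNF, and to at most 95.6 FPKM elsewhere, in BCRF8C in DMSO, where Thy1 made up 92.3 FPKM. Of 5 myeloid markers the table held Mpo alone, at no more than 2.35 FPKM, and markers outside the table were not analysed here. Of the markers of blood cells in general, Ptprc had 39.5 FPKM with BGJ398 and 95.8 FPKM in DMSO in BCRF8C. Spn had 21.5 and 52.7 FPKM there. Coro1a, by contrast, had 2.85 FPKM with BGJ398 and 1.38 FPKM in DMSO in BCRF8C, and at least 52.0 FPKM in the other 4 libraries. The part of lineage in the differences between lines was not tested.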

How the data were processed

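RNA of 6 cultures, 3 lines with BGJ398 or DMSO, was sequenced. The authors deposited 1 table of FPKM values for 17169 genes. Its 6 columns were matched to samples by title, with 0 value columns left over. The submitters' processing notes name TopHat2 (2.0.12), bcl2fastq and the build NCBIM37. For the program behind FPKM, its annotation, strandedness and filters, the entry is: not given in the sources used here. No counting interval was made, since the files hold no depth.

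Values were analysed as log2(FPKM + 1), which understates changes of low genes. Genes averaging 1 FPKM or more were tested with limma (3.58.1, R 4.3.3; lmFit, eBayes with trend) and the line as a block, since each line gave both libraries of a pair. P-values are two-sided and adjusted by Benjamini-Hochberg over all 14232 genes. The fit was also run on simulated data that had no shift across the table. That run cannot show how calls fare under such a shift. Levels of genes of like expression came from 20 classes per line. Of repeated symbols (1 Zfp symbol) the entry with the highest mean was used. Table starts were raised by 1 to count from 1.

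Fingers and KRAB boxes were counted in proteins translated from GENCODE vM21, the KRAB box with a profile of 36 residues built from 110 seeds and a threshold of 43.4 bits. Of the members, 247 matched RefSeq (GRCm38.p6) and 208 had an upstream sequence there. The named genes are the 8 with the highest mean FPKM, the 8 largest rises and 8 largest falls (filled by genes of 1 sign in all lines where fewer than 8 were called), the 3 leaders of each line in DMSO, and members of 6 role lists. Runs, their first and last genes and members without fingers were named after their values were seen. Members and lists were chosen with earlier results of these data known.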

Additional observations from a re-analysis of the deposited data

Results flagged for a closer look

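For 8 of the named genes the log2 ratio, BGJ398 minus DMSO, had opposite signs in different lines, and with 1 library per line and agent the difference was not tested. Zfp182 stood at 1.61 in BCRF8C and −0.071 in BBC, Zfp704 at 1.14 in BCRF8C and −0.29 in ZNF, and Zfp326 at 0.95 in BCRF8C and −0.30 in BBC. Zfp62 stood at 0.40 in BCRF8C and −0.70 in BBC, Zfp36 at 0.23 in ZNF and −0.84 in BCRF8C, and Zfp266 at 0.11 in BBC and −0.88 in BCRF8C. For Zfp687 the ratio was 0.094 in ZNF and −1.31 in BCRF8C, and for Zfp629 it was 0.064 in BBC and −0.39 in ZNF.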

How the results depend on the processing

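The counts of 37 members lower and 4 higher with BGJ398 rest on the deposited scale and on few libraries. Lower calls numbered 21 with no minimum on the genes tested (3979 of all 17169 genes), 16 without the intensity trend of limma (3691 of 14232) and 69 in genes above 0 in all libraries (5667 of 12721), where higher calls numbered 7 (1620 of all). Both counts were 0 after median-of-ratios scaling (unadjusted p under 0.05: 12 lower, 26 higher), quantile normalization (18 and 11) and centring on genes of like expression (7 and 19). Without the line as a block, which ignores the pairing by line, limma also called 0 lower and 0 higher (33 and 5 at an unadjusted p under 0.05). Leaving out 1 line gave 0 to 39 lower and 0 to 3 higher calls. The median relative to all genes, 0.10, was −0.17 with no minimum on the genes tested, 0.33 with a minimum of 5 FPKM on them and −0.042 with that minimum on the members. The like-expression median was 0.13 in BBC with classes over 6 libraries, 0.0031 in ZNF with members from 1 FPKM, and 0.27 in BCRF8C both with a pseudocount of 0.1 and with members from 5 FPKM. Members 2-fold lower and higher, after median-of-ratios scaling, were 3 and 16 in BBC, 0 and 9 in ZNF, and 9 and 34 in BCRF8C. Under quantile normalization they were 24 and 14 in BBC, 5 and 7 in ZNF, and 39 and 25 in BCRF8C. With centring they were 9 and 15 in BBC, 2 lower in ZNF, and 19 and 30 in BCRF8C, and a pseudocount of 0.1 gave 14 and 11 in ZNF. Members differing between BBC and ZNF (17) numbered 8 with a pseudocount of 0.1, 6 with zeros kept and 6 under quantile normalization. Between BBC and BCRF8C (10) they numbered 4, 2 and 6 under the same settings, and between ZNF and BCRF8C (18) 6 with zeros kept and 11 under quantile normalization. Zfp740, called lower, turned to 0.047 under quantile normalization and, when centred, to 0.10, as did Zfp706 to 0.065 and Zfp217 to 0.031. The cause of these differences between settings was not tested.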
